A study of Mus musculus with 6 samples.

Results

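Transcripts of 35 genes of fatty acid beta-oxidation and ketone body synthesis were measured in mouse liver. They were chosen by symbol, from the carnitine shuttle through the mitochondrial and peroxisomal enzymes to ketone body enzymes and close partners, and all 35 symbols were found among the 55536 gene identifiers of the files. The samples are bulk RNA-seq libraries of liver. The mice were C57BL/6 males, a common inbred strain, and were 6 weeks old when dosing began. The 3 PS-MP libraries are from animals that swallowed polystyrene microplastics (0.4 mg daily dose, dosed 2 times weekly over 8 weeks), and the 3 water libraries are from animals that got water by mouth on the same schedule. No genetic change is labelled in either group, and the labels give no particle size, collection hour or feeding state. The labels number the libraries of a group but do not state that each is a mouse of its own, so the p-values below measure the spread between these libraries, and in bulk liver fewer cells of a type and less RNA per cell cannot be told apart.

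Beta-oxidation shortens fatty acids by repeated rounds of dehydrogenation, hydration, a second dehydrogenation and thiolytic cleavage. Mitochondria take long-chain fatty acids in through the carnitine shuttle and pass the electrons to the respiratory chain, and in liver much of the acetyl-CoA becomes ketone bodies during fasting. Peroxisomes run a parallel set of enzymes on very-long-chain, branched and dicarboxylic acids and on bile acid precursors, and export shortened chains to mitochondria as carnitine esters. Many of these genes are targets of PPARalpha, the nuclear receptor that responds to fatty acids, and it binds with RXR to a direct repeat of a short hexamer.

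Library totals implied by the deposited values ran from 13082210 to 16948343 reads, and each of the 35 genes had between 138 and 75397 reads in every library. The liver label was checked against 6 hepatocyte genes. Their summed level was 40287 to 43002 FPKM (reads scaled by exon length and by library size) in water and 33081 to 40360 FPKM in PS-MP. Most of that sum was Alb, at 30947 to 33953 FPKM in water and 24624 to 32191 FPKM in PS-MP. Of the 6, only Apob had a positive log2 fold change (0.092), and the smallest limma adjusted p was 0.511 (Ttr). Of 5 muscle genes, Ckm and Myh4 had no reads in any library. Acta1 had at most 5 reads and Tnnt3 at most 2, and Mylpf had 2 to 13 in each library. Transcripts of other tissues were uneven. A list of 6 brain genes summed to 0.11 to 0.18 FPKM in water and to 1.75, 0.55 and 19.0 FPKM in PS-MP replicates 1, 2 and 3. Gfap of this list had 4 to 15 reads per library, and its groups overlapped. A list of 6 white fat genes summed to 29.5, 1.93 and 11.1 FPKM in water replicates 1, 2 and 3 and to 1.55, 1.58 and 12.6 FPKM in PS-MP, with Lep at 0 reads throughout. Ucp1, which defines brown fat, a tissue rich in beta-oxidation enzymes, was counted at 139, 0 and 15 reads in water against 0, 0 and 68 in PS-MP. The brown fat genes Cidea and Cox8b had reads in the same libraries only. Cidea was at 47, 0 and 19 reads in water and 0, 0 and 17 in PS-MP. Cox8b was at 5, 0 and 1 in water and 0, 0 and 6 in PS-MP. Cpt1b, the carnitine palmitoyltransferase of muscle and brown fat, had 7 to 12 reads in each library, and Cox7a1 had 4 to 7. The brown fat list of 6 genes summed to 102 to 173 FPKM in water and 63.8 to 88.8 FPKM in PS-MP, but most of that was Elovl3, which male liver also expresses. The clock output gene Dbp was at 1.06, 3.29 and 1.63 FPKM in water and at 9.60, 11.1 and 17.1 FPKM in PS-MP, with no overlap of the groups (limma adjusted p = 0.0367).

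A pair of genes on chromosome 9 encodes peroxisomal thiolase, the enzyme that cuts off acetyl-CoA, and their sequences are shown because their reads may be hard to separate. Acaa1b lies at chr9:119148023-119157093 on the minus strand and Acaa1a at chr9:119339676-119350299 on the plus strand of GRCm38. Their coding sequences have 1275 bases each and differ at 44 of them (96.5% identical, with no gap), and the longest run shared without a difference is 327 bases. Of the 1176 windows of 100 bases in the Acaa1b coding sequence, 283 also occur in Acaa1a (24.1%). The stretch of 120 coding bases with the most differences, coding bases 433 to 552, reads as follows in the GENCODE M21 transcripts, with the 14 bases that differ in capitals; it spans chr9:119344495-119347736 in Acaa1a and chr9:119150898-119153683 in Acaa1b, introns included.
Acaa1a: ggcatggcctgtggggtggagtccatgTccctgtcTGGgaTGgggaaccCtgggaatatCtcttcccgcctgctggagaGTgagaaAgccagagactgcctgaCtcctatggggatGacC
Acaa1b: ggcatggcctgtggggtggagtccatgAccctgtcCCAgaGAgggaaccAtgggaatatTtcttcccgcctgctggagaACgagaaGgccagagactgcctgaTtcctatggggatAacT
The sources used here do not state how reads that match both copies were counted, so the levels of both genes are uncertain.

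Promoter windows from RefSeq (GRCm38.p6; 250 bases before to 50 bases after each start) were found for 29 of the 35 genes; Acaa2, Acat1, Crat, Decr1, Hsd17b4 and Vnn1 had no entry. The direct repeat that PPARalpha binds with RXR was searched on both strands as AGGTCA repeated after 1 free base. A looser form, AGGNCA repeated after 1 free base, takes in every strict match. The strict form occurred in 0 of the 29 and in 0.0481% of all 27025 genes with a window. A form this rare would seldom be met in 29 windows, and bases further from the starts were not searched. The looser form occurred in 1 of the 29, Fabp1, and in 0.451% of all genes. A GC box, GGGCGG, occurred in 21 of 29 windows (72.4%) against 38.2% of all genes, and CCAAT in 14 of 29 (48.3%) against 41.1%. All genes with a window were counted here, whether expressed in liver or not, and no share was taken over genes of like level. The clock motifs CACGTG and TTATGTAA occurred in 0 of the 29 windows and in 8.09% and 1.11% of all genes. At such shares few matches would be met in 29 windows, so these counts do not show a lack of clock motifs. Shown are Fabp1, with the only match to the looser repeat, and Ehhadh, Acaa1b and Acaa1a, which encode peroxisomal enzymes with unlike values below. Capitals mark these matches, and each stretch lies before the RefSeq start and outside the exons of GENCODE M21: chr6:71199729-71199826 (plus strand), chr16:21787835-21787984 (minus), chr9:119157094-119157243 (minus) and chr9:119341160-119341293 (plus).
Fabp1: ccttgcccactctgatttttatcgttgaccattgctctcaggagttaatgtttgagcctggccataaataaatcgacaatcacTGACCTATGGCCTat
Ehhadh: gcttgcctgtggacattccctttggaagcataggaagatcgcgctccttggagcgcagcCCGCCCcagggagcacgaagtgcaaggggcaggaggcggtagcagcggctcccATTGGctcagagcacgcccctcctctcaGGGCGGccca
Acaa1b: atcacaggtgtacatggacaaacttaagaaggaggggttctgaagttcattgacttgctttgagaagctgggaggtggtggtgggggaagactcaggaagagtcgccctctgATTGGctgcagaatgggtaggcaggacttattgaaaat
Acaa1a: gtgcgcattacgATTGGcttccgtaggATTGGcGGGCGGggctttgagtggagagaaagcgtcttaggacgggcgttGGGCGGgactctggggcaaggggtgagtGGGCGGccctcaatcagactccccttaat
The Fabp1 match spans bases -67 to -55 from the RefSeq start, on the opposite strand. Ehhadh held GC boxes at bases -91 to -86 and -10 to -5, Acaa1a held 3 of them, and Acaa1b held none in its window. A match is a description of these letters only.

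Levels differed widely between the genes. Fabp1, the liver protein that carries fatty acids through the cytosol, had the highest level, 3172 ± 472 FPKM in water (SD, n = 3), and Pdk4, a kinase that shuts down pyruvate oxidation, had the lowest, 11.2 ± 5.69 FPKM. In water, 16 of the 35 genes were above 100 FPKM and 3, Pdk4, Etfb and Echs1, were below 20. The peroxisomal enzymes Ehhadh (1344 ± 137 FPKM), Scp2 (1183 ± 60.5) and Acaa1b (625 ± 81.02) stood above the most abundant mitochondrial enzyme, the thiolase Acaa2 (413 ± 24.3 FPKM; SD, n = 3 each). The Scp2 value pools the longer product of that gene, a thiolase, with its shorter product, so the level of the thiolase alone is not known. Ehhadh and Scp2 did not differ beyond their spread. The order depends on the exon length used for scaling: the merged exons of Echs1 come to 8286 bases and those of Fabp1 to 553. Agreement between libraries was close for most of the genes, with a median coefficient of variation of 4.31% in water and 5.27% in PS-MP. Pdk4 was the most variable, at 50.7% in water and 48.2% in PS-MP.

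**Figure D1:**
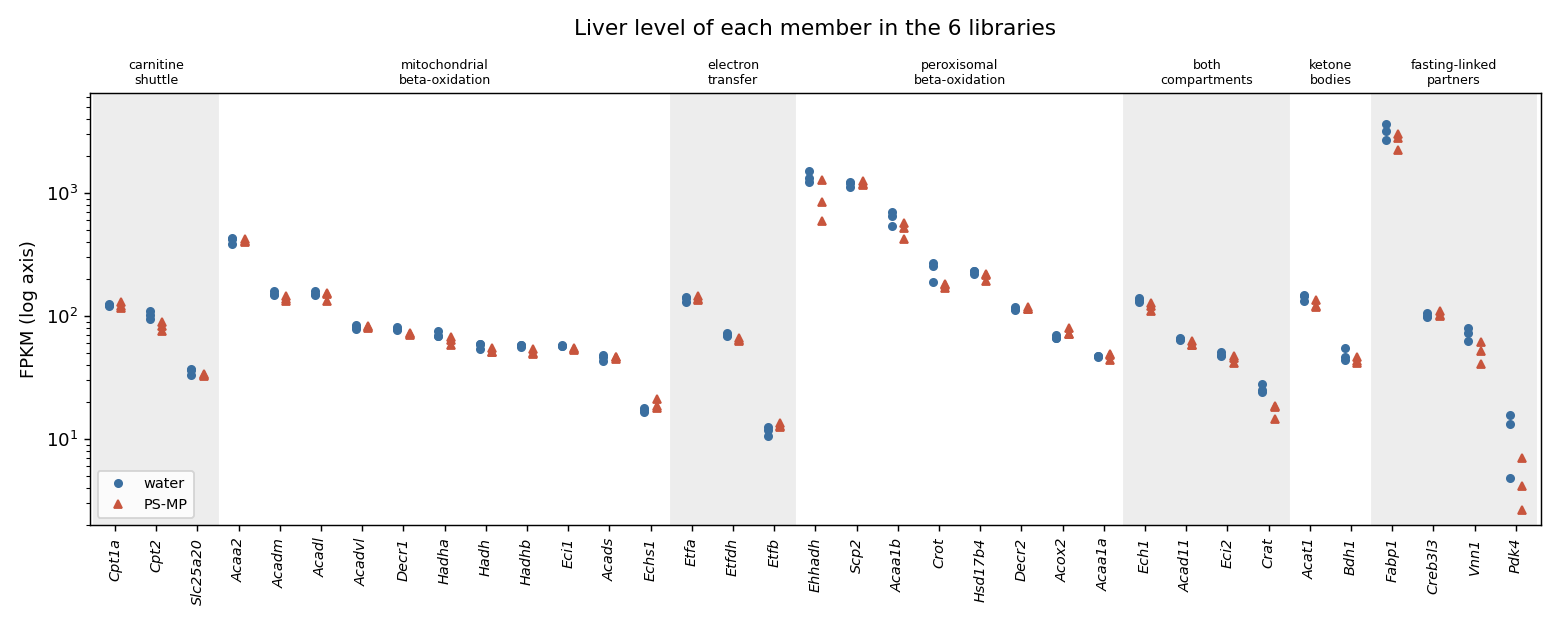
Level of each of the 35 genes in FPKM (log axis) in the 3 water libraries (circles) and the 3 PS-MP libraries (triangles), grouped by role and ordered by the water mean within a role. Fabp1 is highest and Pdk4 lowest, and the libraries of both groups lie close together for most genes.

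PS-MP was compared with water to ask whether oral microplastics go with a different level of these transcripts. Most of the 35 genes had slightly lower means in PS-MP, and none passed the test. With limma-trend on log2(FPKM + 0.5), 0 of the 35 had an adjusted p under 0.05 in either direction, where 0.489% of all 13294 genes tested were called (65 genes). The log2 fold change was negative in 28 of 35 (80.0%) against 46.4% of all genes tested, and its median was -0.13 against 0.014. An unadjusted p under 0.05 with a negative fold change was found for 10 of the 35 (28.6%), where 5.57% of all genes had one, and for 0 with a positive fold change, where 7.48% had one. The 3 PS-MP values lay below all 3 water values in 13 of the 35 (37.1%) against 8.12% of all genes, and above them in 2 (Etfb and Acox2; 5.71%) against 11.0%. Among the 2837 tested genes with a mean of at least 10 FPKM, which is nearer to the level of these enzymes, 53.6% had a negative fold change, 8.57% had an unadjusted p under 0.05 and were lower, and 11.7% lay wholly below water. The genes were chosen with earlier results of these data known, so these shares describe the list and are no test of it.

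The differences were small for most of the list. Of the 35 log2 fold changes, 27 lay within 0.2 of 0, and for 28 genes the 95% interval stayed within a factor of 1.5 in both directions. The 7 exceptions were Ehhadh, Acaa1b, Crot, Crat, Pdk4, Vnn1 and Fabp1. The count of 10 genes with an unadjusted p under 0.05 and a lower mean rested on the libraries: it was 5 without water replicate 1, 4 without PS-MP replicate 1, 6 without PS-MP replicate 3 and 3 with the 3 libraries that hold Ucp1 reads left out, which leaves a lone water library assumed to vary like the others. Dbp and the sum of the brain list described above moved with the same groups, and their part in these differences was not tested.

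**Figure D2:**
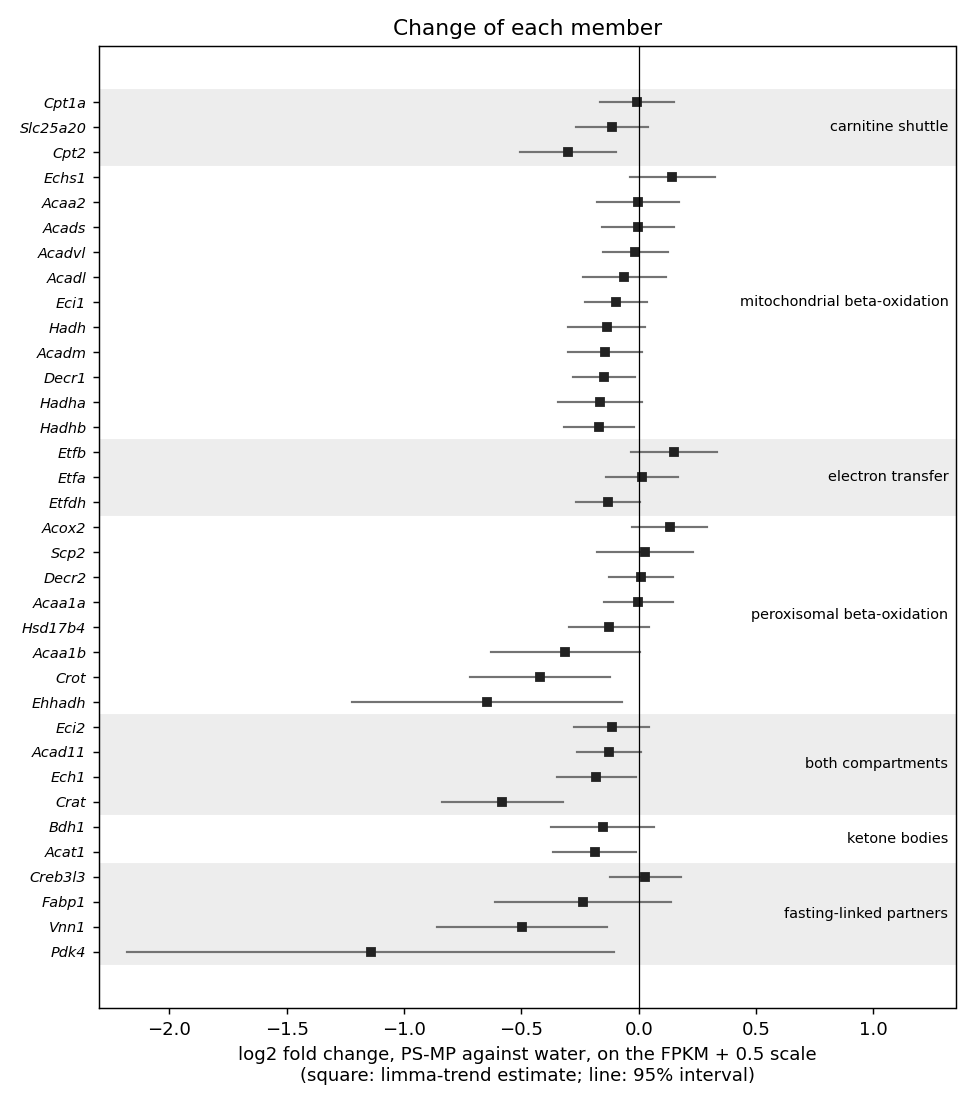
Log2 fold change of PS-MP against water for each of the 35 genes (squares, limma-trend on FPKM + 0.5) with 95% intervals (lines), grouped by role. Most lie between -0.2 and 0.2, and the longest intervals are those of Pdk4 and Ehhadh.

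The carnitine shuttle moves long-chain acyl groups across the mitochondrial membranes. Cpt1a, the malonyl-CoA-sensitive enzyme that controls entry, was at 120, 122 and 125 FPKM in water replicates 1, 2 and 3 and at 115, 120 and 130 FPKM in PS-MP replicates 1, 2 and 3; values below keep this order. The groups overlapped fully, with a log2 fold change of -0.0066 (95% interval -0.16 to 0.15). Cpt2, which rebuilds acyl-CoA inside the mitochondrion (chr4:107903981-107923610), was at 102, 110.3 and 94.4 FPKM in water and at 82.9, 90.03 and 75.6 FPKM in PS-MP. Its groups did not overlap, and its log2 fold change was -0.30 (SE 0.089, limma adjusted p = 0.22). The carrier Slc25a20, which exchanges acylcarnitine for carnitine between both enzymes, had a log2 fold change of -0.11 (interval -0.27 to 0.041), with 33.3 to 37.3 FPKM in water and 32.5 to 33.6 FPKM in PS-MP.

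Of the 11 enzymes of the mitochondrial spiral, 10 had a negative and 1 a positive fold change, none passed the limma test, and all lay between -0.17 and 0.14. The acyl-CoA dehydrogenases, which open each round for a given chain length, were close to water. For Acadvl (very long chains) the log2 fold change was -0.014 (interval -0.15 to 0.12), for Acadl (long chains) -0.062, for Acads (short chains) -0.0039 and for Acadm (medium chains) -0.14 (interval -0.30 to 0.012). Acadm was the only one of these 4 with groups that did not overlap, at 160, 150 and 148 FPKM in water and 138, 144 and 132 FPKM in PS-MP.

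Hadha and Hadhb encode the subunits of the trifunctional protein, which carries long chains through hydration, dehydrogenation and cleavage. They lie head to head on chromosome 5 with 85 bases between them (chr5:30118304-30155162, minus strand, and chr5:30155248-30184593, plus strand). Hadha was at 74.8, 68.9 and 68.3 FPKM in water and 63.4, 67.8 and 57.9 FPKM in PS-MP, and Hadhb was at 58.5, 55.6 and 58.0 FPKM in water and 49.9, 53.9 and 49.2 FPKM in PS-MP. In both, every PS-MP library was below every water library, and both log2 fold changes were -0.17 (limma adjusted p = 0.425 for Hadha and 0.32 for Hadhb).

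Decr1 and Eci1 handle unsaturated chains, by reducing and by shifting their double bonds. Decr1 was at 77.5, 80.7 and 77.7 FPKM in water and 70.9, 72.3 and 69.6 FPKM in PS-MP, with group means of 78.7 ± 1.81 and 71.0 ± 1.38 FPKM (SD, n = 3). Its log2 fold change was -0.15 (limma adjusted p = 0.334). Eci1 was at 57.2 to 57.6 FPKM in water and 52.4 to 55.2 FPKM in PS-MP (log2 fold change -0.096). For both, the groups did not overlap. The short-chain dehydrogenase Hadh had a log2 fold change of -0.14 with overlapping groups. The short-chain hydratase Echs1 was the single enzyme of this set with a positive value, 0.14 (interval -0.038 to 0.32), and the thiolase Acaa2 had -0.0029, at 386 to 433 FPKM in water and 399 to 426 FPKM in PS-MP.

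Electrons from the dehydrogenases pass through the flavoprotein of Etfa and Etfb to its oxidoreductase, Etfdh, in the inner membrane. Etfa was at 131 to 142 FPKM in water and 134 to 145 FPKM in PS-MP (log2 fold change 0.012). Its partner Etfb was at 11.7, 12.4 and 10.7 FPKM in water and 13.6, 12.7 and 12.4 FPKM in PS-MP, with the lowest PS-MP value just above the highest water value (log2 fold change 0.15, limma adjusted p = 0.468). Etfdh lay on the other side, at 70.6, 68.3 and 72.7 FPKM in water and 66.3, 63.1 and 63.7 FPKM in PS-MP, again without overlap (log2 fold change -0.13, limma adjusted p = 0.405).

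The 8 peroxisomal enzymes were less uniform: 5 had a negative and 3 a positive fold change, between -0.65 and 0.13, and none passed the limma test. Ehhadh, the bifunctional enzyme that hydrates and dehydrogenates straight and dicarboxylic chains (chr16:21761287-21787807), had the most negative value. It was at 1223, 1492 and 1317 FPKM in water and at 838, 1271 and 589 FPKM in PS-MP. PS-MP replicate 2 lay within the water range and PS-MP replicate 3 far below it, so the groups overlapped. Its mean went from 1344 ± 137 to 899 ± 345 FPKM (SD, n = 3 each), a log2 fold change of -0.65 (95% interval -1.22 to -0.069, SE 0.25, limma adjusted p = 0.332). Without PS-MP replicate 3, where the brain list was highest, the value was -0.38 (limma adjusted p = 0.481), and without PS-MP replicate 2 it was -0.93 (limma adjusted p = 0.126).

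Crot, which attaches medium chains to carnitine for export from peroxisomes (chr5:8966033-8997324), was at 271, 189 and 252 FPKM in water and at 180.1, 177 and 169 FPKM in PS-MP. The PS-MP libraries were close together and just under water replicate 2, which stood apart from the other water libraries. Its log2 fold change was -0.42 (interval -0.72 to -0.12, limma adjusted p = 0.236), -0.58 without water replicate 2 (limma adjusted p = 0.0551) and -0.084 with the 3 libraries that hold Ucp1 reads left out, where water replicate 2 is the only water library. Exons of Crot overlap those of Gm37153 and Gm27941.

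The peroxisomal thiolase copies, whose sequences are given above, had unlike values. Acaa1b was at 694, 646 and 536 FPKM in water and 519, 567 and 425 FPKM in PS-MP (log2 fold change -0.31, interval -0.63 to 0.0037, limma adjusted p = 0.387), and the groups overlapped through PS-MP replicate 2 and water replicate 3. Without PS-MP replicate 3 its value was -0.20, and over the fits without 1 library it ran from -0.42 to -0.20. Acaa1a was at 47.1, 47.1 and 46.4 FPKM in water and 44.1, 47.7 and 48.7 FPKM in PS-MP (log2 fold change -0.0018, interval -0.15 to 0.14). The ratio of Acaa1b to Acaa1a was 14.7, 13.7 and 11.5 in water and 11.8, 11.9 and 8.71 in PS-MP. This difference between the copies was not tested.

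The remaining peroxisomal enzymes were near water. Hsd17b4, the bifunctional enzyme of branched chains and bile acid precursors, was at 219 to 234 FPKM in water and 193 to 218 FPKM in PS-MP, without overlap (log2 fold change -0.13, interval -0.30 to 0.045). Acox2, the oxidase that opens the shortening of bile acid side chains, was one of the 2 genes lying wholly above water, at 66.5, 70.2 and 66.5 FPKM against 71.6, 71.7 and 79.7 FPKM in PS-MP (log2 fold change 0.13, limma adjusted p = 0.466). Scp2, whose longer product is the thiolase of branched chains, had a log2 fold change of 0.026 and Decr2, the peroxisomal dienoyl-CoA reductase, 0.0086. Decr2 stayed between 112 and 117 FPKM in all 6 libraries.

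A set of 4 genes encodes enzymes found in both compartments, and all 4 had negative values, none past the limma test. Crat, which moves short acyl groups between CoA and carnitine (chr2:30400471-30415813), had the smallest p of the 35. It was at 25.2, 28.1 and 23.9 FPKM in water and at 18.3, 18.6 and 14.4 FPKM in PS-MP, so that every PS-MP library lay well below every water library. The mean went from 25.7 ± 2.19 to 17.1 ± 2.33 FPKM (SD, n = 3 each), a log2 fold change of -0.58 (interval -0.84 to -0.32, SE 0.11, limma adjusted p = 0.0961). With limma-voom on recovered reads, which called 1.0% of all genes tested, Crat was the 1 gene of the 35 that passed, at -0.60 and an adjusted p of 0.0388; over all alternatives its adjusted p ran from 0.0388 to 0.479. Its exons overlap those of Dolpp1 and Gm16323. Ech1, which moves double bonds of dienoyl chains, was at 139, 136 and 129 FPKM in water and 110.4, 126.5 and 120.003 FPKM in PS-MP, without overlap (log2 fold change -0.18, limma adjusted p = 0.351). Acad11, a dehydrogenase of long chains, also did not overlap (-0.13), while the isomerase Eci2 did (-0.12).

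The mitochondrial and peroxisomal branches had similar medians and unlike ranges. The 11 mitochondrial enzymes had a median log2 fold change of -0.096 and the 8 peroxisomal ones of -0.064, a difference of 0.032, against 0.014 over all genes tested. Counting the 4 genes of both compartments as peroxisomal moved the peroxisomal median to -0.13 and turned the difference to -0.030. PS-MP values lay wholly below water for 5 of 11 mitochondrial and 2 of 8 peroxisomal enzymes, where 8.12% of all genes tested and 11.7% of those with a mean of at least 10 FPKM did. The mitochondrial values covered a narrow band, -0.17 to 0.14, and the widest mitochondrial interval spanned about 0.36 on the log2 scale. That band leaves out the carnitine shuttle (Cpt1a -0.0066, Slc25a20 -0.11 and Cpt2 -0.30), whereas Crot, which also acts on carnitine, was counted as peroxisomal. The peroxisomal values covered -0.65 to 0.13, because Ehhadh, Crot and Acaa1b lay apart from 5 enzymes within 0.14 of 0. Summed over the branch, the peroxisomal level was 3878, 3904 and 3757 FPKM in water and 3173, 3628 and 2881 FPKM in PS-MP, and the mitochondrial level was 1222, 1183 and 1145 FPKM against 1134, 1140 and 1122 FPKM. Both sums were lower in all PS-MP libraries than in all water libraries, and Ehhadh alone made up 31.5% to 38.2% of the peroxisomal sum in water and 20.5% to 35.03% in PS-MP. No test of the difference between the branches was made, because their members were chosen with results known.

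**Figure D3:**
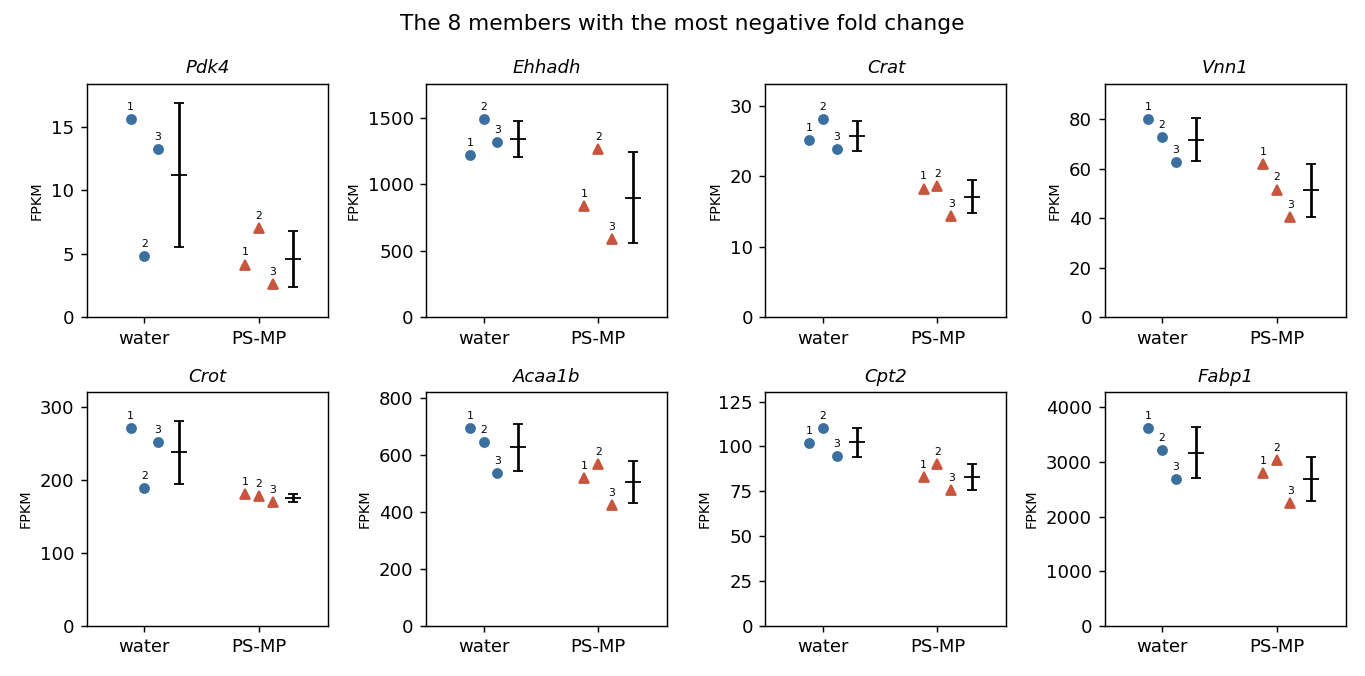
FPKM by library (numbers are replicate numbers) for the 8 genes with the most negative log2 fold change, with the mean and SD of each group as a bar beside the points. Crat, Vnn1, Crot and Cpt2 show no overlap of the groups, whereas Pdk4, Ehhadh, Acaa1b and Fabp1 do overlap.

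For ketone bodies, Acat1, the mitochondrial thiolase that joins acetyl-CoA units, was at 147, 133 and 145 FPKM in water and 119, 119.5 and 135 FPKM in PS-MP (log2 fold change -0.19, limma adjusted p = 0.36). PS-MP replicate 3 reached into the water range. Bdh1, which reduces acetoacetate to beta-hydroxybutyrate, was at 43.7 to 55.2 FPKM in water and 41.4 to 46.1 FPKM in PS-MP (log2 fold change -0.15, interval -0.37 to 0.066).

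Among the partners that respond to fasting, Pdk4 had the largest difference and the widest error. It was at 15.6, 4.79 and 13.3 FPKM in water and at 4.14, 6.99 and 2.64 FPKM in PS-MP. Water replicate 2 lay among the PS-MP values, and the log2 fold change of -1.14 had an interval from -2.18 to -0.11 (limma adjusted p = 0.337). It was -1.64 without water replicate 2 and 0.16 with the 3 libraries that hold Ucp1 reads left out. Vnn1, a pantetheinase of the cell surface that splits a product of CoA breakdown (chr10:23894688-23905343), was at 80.1, 72.8 and 62.6 FPKM in water and 61.9, 51.6 and 40.3 FPKM in PS-MP. The groups met without overlapping, and the log2 fold change was -0.50 (interval -0.86 to -0.14, limma adjusted p = 0.246). Fabp1, which carries the match to the looser repeat shown above, was at 3623, 3211 and 2681 FPKM in water and 2802, 3033 and 2246 FPKM in PS-MP. Its log2 fold change was -0.24 (interval -0.61 to 0.14), with overlap of the groups. Its value was -0.11 without PS-MP replicate 3, -0.13 without water replicate 1 and -0.35 without water replicate 3. Creb3l3, a membrane-bound transcription factor of the fasted liver, was at 98.4 to 106 FPKM in water and 100.3 to 109 FPKM in PS-MP (0.027).

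Single libraries placed the genes unevenly. PS-MP replicate 3 held the lowest value for 18 of the 35 genes (51.4%), against 18.3% of all genes tested, and water replicate 1 held the highest for 16 (45.7%), against 17.6%. PS-MP replicate 3 also had the highest brain list and the highest Dbp, and water replicate 1 the most Ucp1 reads and the lowest Dbp. The hepatocyte sum was lowest in PS-MP replicate 3, at 33081 FPKM, against 38499 to 43002 FPKM in the other libraries. Alb and Ttr were lowest there, whereas Apoa1, Apob, Fgb and Serpina1c were lowest in other libraries. The part of these values in the uneven placing was not tested. The median difference from the water mean over the 35 genes was 0.029, 0.0069 and -0.027 in water and -0.13, -0.067 and -0.16 in PS-MP on the log2 scale. Without PS-MP replicate 3 the median log2 fold change of the 35 was -0.11. The median ran from -0.15 to -0.11 over the 6 fits that each left out 1 library, and was -0.078 with the 3 libraries that hold Ucp1 reads left out.

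**Figure D4:**
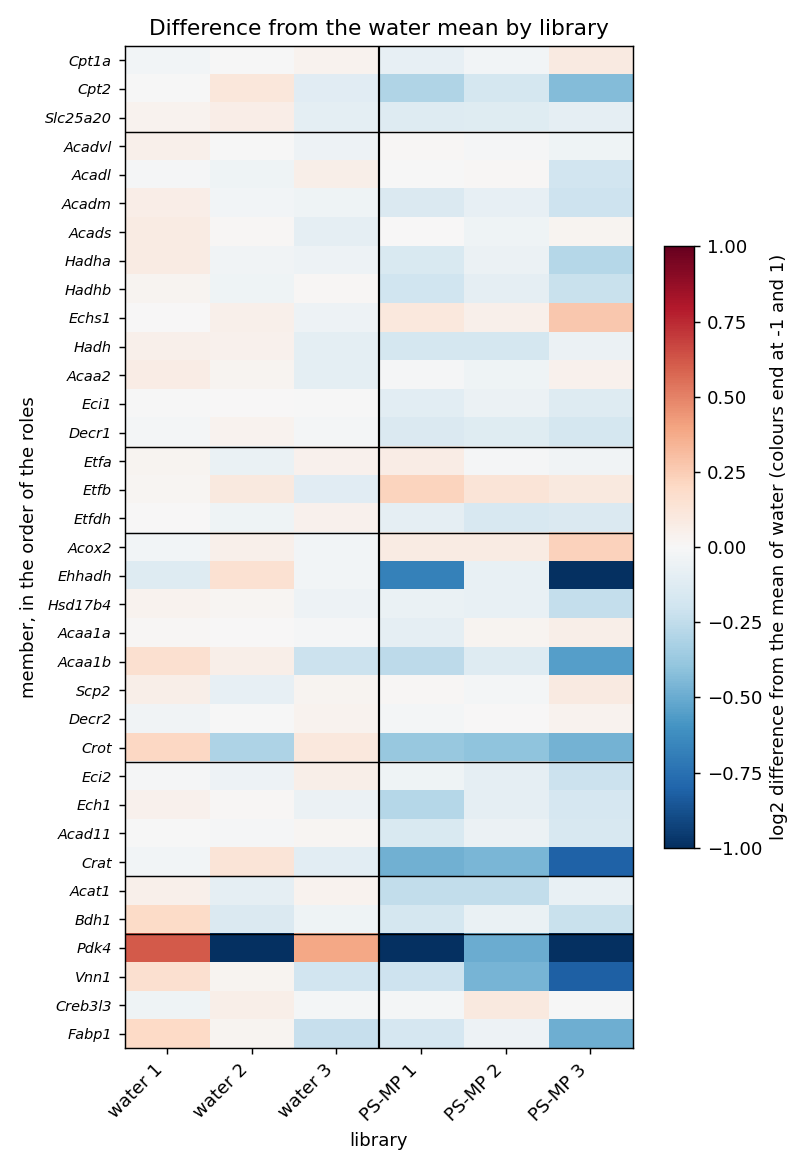
Log2 difference of each gene from its water mean in each library, on the FPKM + 0.5 scale, with lines between the roles; colours end at -1 and 1, which Pdk4 and Ehhadh pass. Ehhadh, Crat, Vnn1 and Pdk4 are lowest in PS-MP replicate 3, and Pdk4 is low in water replicate 2 as well.

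Other genes around the pathway were fixed as a list beside the 35. Of 36 further enzymes, transporters and regulators, 35 were found and tested, 0 passed the limma test in either direction, 22 had a positive and 13 a negative fold change, and the median was 0.030. That median was near 0 and rested on the libraries: it was -0.055 without PS-MP replicate 3, -0.0033 without water replicate 2 and -0.055 with the 3 libraries that hold Ucp1 reads left out. An unadjusted p under 0.05 was found for 3 with a positive and 2 with a negative value, shares close to the 7.48% and 5.57% of all genes tested, and limma-voom called 0 of the 35. Ppara itself was at 43.5 to 51.4 FPKM in water and 45.2 to 51.9 FPKM in PS-MP (log2 fold change 0.044, interval -0.15 to 0.24). The coactivator Ppargc1a, which drives mitochondrial oxidation genes, was at 2.14, 2.89 and 2.97 FPKM in water and 4.46, 7.08 and 3.77 FPKM in PS-MP, without overlap (log2 fold change 0.79, SE 0.21, limma adjusted p = 0.184). Rxra, the partner receptor of PPARalpha, was at 66.4, 71.5 and 62.1 FPKM in water and 75.7, 80.8 and 80.2 FPKM in PS-MP, also without overlap (0.24, limma adjusted p = 0.22). Pex11a, a peroxisome division protein, lay wholly below water, at 57.0 to 73.9 FPKM against 42.7 to 56.1 FPKM (-0.41, limma adjusted p = 0.237). Nudt7, a peroxisomal hydrolase of CoA, lay wholly above it, at 18.1 to 21.4 FPKM against 21.6 to 36.0 FPKM (0.50, limma adjusted p = 0.274).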

How the data were processed

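Each library has a deposited table of FPKM values by gene identifier. The tools that made them were, per the submitters' processing notes, CASAVA, FastQC, MultiQC, Trimmomatic 0.38, HISAT2 2.1.0, featureCounts 1.6.0 and DESeq2 1.22.1; the build named there is human, while 55450 of 55536 identifiers matched mouse GENCODE M21 on GRCm38 and the other 86 were not tested. The sources used here do not state whether counting used strand, and exons of 12 of the 35 genes overlap another gene. FPKM times merged exon length gave whole reads within 0.001 for 100.0% of matched values, which set depth, the low-count rule and the limma-voom alternative; the total each library implies was used as its size. Genes entered with at least 0.66 CPM in 3 libraries and 15 reads in all (13294 genes). The main test was limma-trend (limma 3.58.1, R 4.3.3) on log2(FPKM + 0.5), group as the only term, Benjamini-Hochberg over all genes, threshold 0.05; fold changes on this scale understate low genes. Alternatives were pseudocounts of 0.1 and 1, no low-count rule or 1 CPM, median-of-ratios and upper-quartile scaling, limma-voom, robust variances, a replicate block, each library left out, and the libraries with at least 10 Ucp1 reads left out. In 20 simulated runs of this comparison, with 200 changed genes and 13487 genes tested on average, and 1 dispersion of 0.04 for every gene, which is more spread than most of the 35 genes showed, it called 4.26% of genes changed 1.5-fold, 42.1% of those changed 2-fold and 94.9% of those changed 4-fold, and 5.66% of calls were false. No 2 libraries of a group were identical, and their reads differed by at least 9.98 times the degrees of freedom (chi-square). The genes, roles and lists were chosen with earlier results of these data known; all 35 are reported, and of the other pathway genes Ppara and the 4 with the smallest p.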

Additional observations from a re-analysis of the deposited data

How the results depend on the processing

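None of the 35 genes was called in 15 of 16 alternative fits; limma-voom on recovered reads called 1, Crat. Over all genes, the count of 65 became 133 with limma-voom, 0 with no low-count rule, 23 with the replicate block, 0 with the libraries holding Ucp1 reads left out, and 0 to 36 without 1 library (0 without water replicate 3). In the limma-trend fits with 0 calls, 2062, 1036 and 1638 genes, in that order, had an unadjusted p under 0.05. Replicate numbers do not pair the libraries (correlations of same-numbered deviations -0.036, 0.046 and -0.010), and the replicate block called 0 of the 35. The count of 10 genes lower at an unadjusted p under 0.05 became 3 with the Ucp1 libraries left out and 4 to 12 without 1 library, and was 7 to 14 in the other fits. Counting the genes of both compartments as peroxisomal gave a peroxisomal median of -0.13 and a difference from the mitochondrial median of -0.030, in place of 0.032. No other alternative moved a branch median by more than its spread between libraries.

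The sign held in all 16 fits for 23 genes. With median-of-ratios scaling it turned for Etfa (-0.0040) and Decr2 (-0.0078). With the Ucp1 libraries left out it turned for Acadvl (0.0060), Acadl (0.045), Decr2 (-0.0013), Bdh1 (0.023), Pdk4 (0.16) and Creb3l3 (-0.017). Without 1 library the log2 fold change ran from -0.054 to 0.032 for Cpt1a, -0.038 to 0.013 for Acadvl, -0.099 to 0.0026 for Acadl, -0.049 to 0.036 for Acads, -0.050 to 0.033 for Acaa2, -0.022 to 0.035 for Etfa, -0.031 to 0.041 for Acaa1a, -0.016 to 0.055 for Scp2, -0.0080 to 0.027 for Decr2 and -0.0092 to 0.057 for Creb3l3. The cause was not tested. Without 1 library the value kept its sign but moved by over 1.5 times for Hadha (-0.22 to -0.11), Echs1 (0.078 to 0.19), Etfb (0.094 to 0.20), Acox2 (0.080 to 0.16) and Hsd17b4 (-0.16 to -0.071). The same held for Eci2 (-0.15 to -0.067), Ehhadh (-0.93 to -0.38), Acaa1b (-0.42 to -0.20), Bdh1 (-0.23 to -0.059) and Fabp1 (-0.35 to -0.11).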
